A study of Mus musculus with 17 samples.

Results

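Cytosolic heat shock chaperones and co-chaperones were followed in the mouse hypothalamus through 10 genes: Hsph1, Chordc1, Cacybp, Cryab, Hspa8, Hspa4, Hsp90aa1, Dnaja1, Dnajb1 and Stip1. These 10 genes, of 12393 genes with a probe set of their own on the array, had 22 probe sets, and 21 of the 22 were above the signal filter and were tested. The genes were chosen by earlier results of the same arrays, namely their differences from control mice, so those differences are given below as a description and not as a test. RNA came from 17 hypothalami, with 1 Affymetrix array for each, all from male C57Bl/6 mice aged 9 weeks. There were 5 ob/ob mice, which lack functional leptin and become obese and insulin resistant. There were 6 wild-type mice given 1 intraperitoneal dose of streptozotocin (STZ, 200 µg per g body weight), which destroys pancreatic beta cells. The 6 control mice were wild type and received vehicle. The labels describe no injection of the ob/ob mice, and the time from injection and the blood glucose are not given in the sources used here.

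Chaperones of the cytosol hold unfolded proteins and help them fold. Hsp70 proteins such as the constitutive Hspa8 work with J proteins, which bring substrates and stimulate their ATPase, and with nucleotide exchange factors of the Hsp110 type. Stip1 then bridges Hsp70 to Hsp90, where further co-chaperones assist the maturation of kinases and steroid receptors. The inducible members share a transcription factor, Hsf1, which binds heat shock elements, inverted repeats of GAA and TTC units, in their promoters. In the brain these chaperones are abundant in neurons, while Cryab is best known from oligodendrocytes and astrocytes.

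Promoter sequence was read from RefSeq on build GRCm38.p6, in windows of 250 bases before to 50 bases after each gene's start, to show which genes carry such repeats next to the start. Windows were found for 7 of the 10 genes, 11 windows in all, and Cryab, Hspa8 and Hsp90aa1 had none in the table. A match of 3 units, written GAANNTTCNNGAA or TTCNNGAANNTTC, each the reverse complement of the other, was present in Chordc1 and Hsph1, 2 of the 7 genes. It was present in 0.662% of all 27025 genes, and in 0.603% of all 32851 windows. A match of 2 units, GAANNTTC or TTCNNGAA, each its own reverse complement, is part of every 3-unit match and was present in 3 of the 7 genes, beside 17% of all genes and 15.1% of all windows. The additional gene was Dnaja1, where 1 of its 3 windows had the match. The stretches with matches follow, 5′ to 3′ on the gene's strand, with the GAA and TTC units of each match in capitals.
Chordc1, chr9:18292238-18292316, plus strand, from base -29 to base 50 around the start: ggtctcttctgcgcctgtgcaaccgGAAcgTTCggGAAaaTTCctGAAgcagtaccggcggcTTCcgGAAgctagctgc
Hsph1, chr5:149636266-149636394, minus strand, from base -79 to base 50: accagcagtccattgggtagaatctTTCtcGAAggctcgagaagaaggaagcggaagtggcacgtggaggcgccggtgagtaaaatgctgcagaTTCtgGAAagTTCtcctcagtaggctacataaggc
Dnaja1, chr4:40722319-40722376, plus strand, from base -149 to base -92: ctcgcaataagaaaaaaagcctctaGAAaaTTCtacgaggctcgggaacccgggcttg

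Chordc1 has 7 units in this stretch, and its run of overlapping 3-unit matches spans base -4 to base 19. Hsph1 has 5 units, of which 3 form its 3-unit match. Cacybp, Dnajb1, Hspa4 and Stip1 had no match in their windows. A match is a description of the letters and not a measured binding site. Only exact units at this spacing were searched, so the lack of a match does not show that a gene lacks a heat shock element.

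On the brightest probe set of each gene, the lowest log2 fold changes against control mice belonged to Chordc1, Hsph1 and Cryab in both models, at -0.48, -0.29 and -0.26 in ob/ob and -0.35, -0.21 and -0.35 in STZ mice. Hspa8, Dnaja1, Dnajb1 and Stip1 lay between -0.11 and 0.025 in both. Signals are MAS5 signals as deposited, 1 per probe set and array, on a linear scale. Differences are given on the log2 scale as model minus control, ± the standard error (SE) that limma estimated from 5 ob/ob, 6 STZ and 6 control arrays. Whole hypothalami were measured, so fewer cells of a type and less RNA per cell cannot be told apart. Nothing in the labels says that replicates share a litter or batch, and the limma and permutation p-values measure only the spread between these samples.

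**Figure D1:**
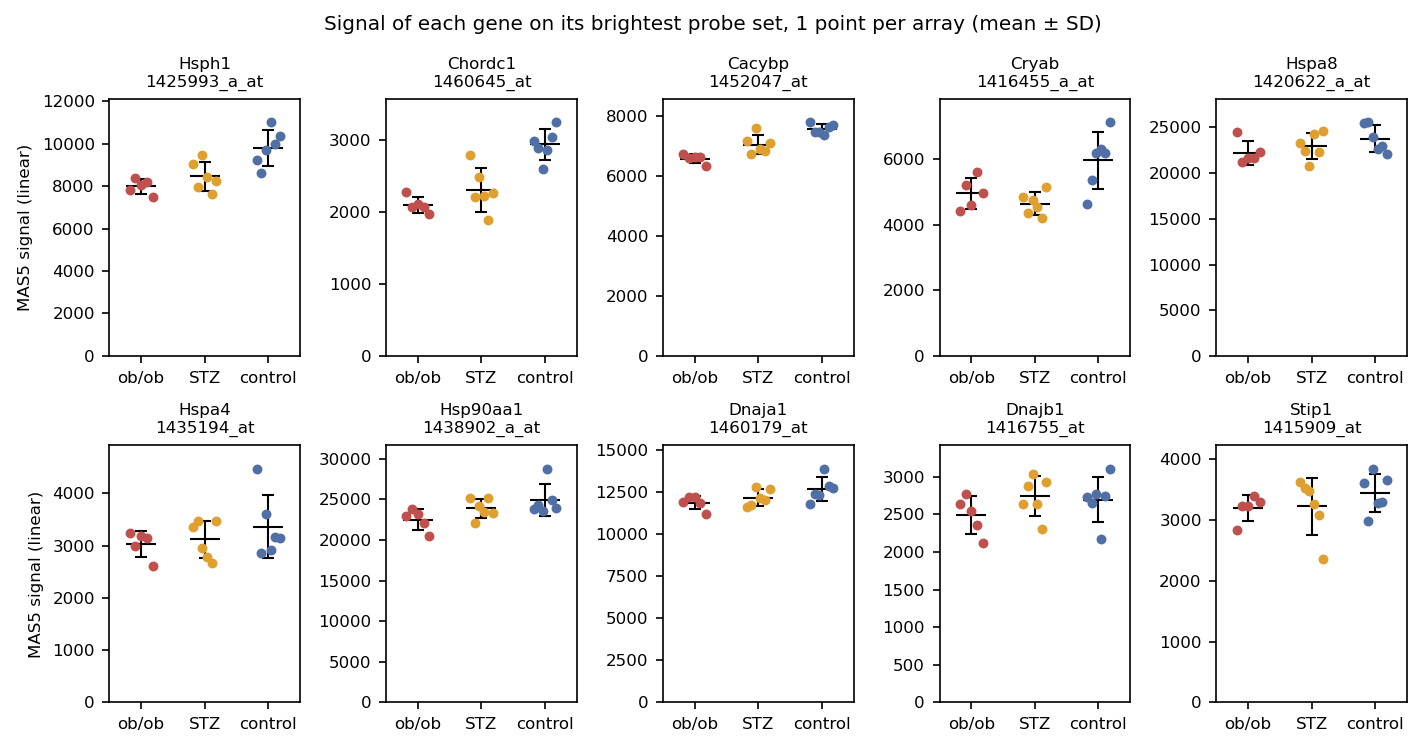
MAS5 signal (linear axis from 0) of each of the 10 genes on its brightest probe set, in ob/ob, STZ and control hypothalami, with 1 point per array and the mean ± SD as bars. Chordc1, Hsph1 and Cacybp signals of the 5 ob/ob arrays all lie below those of the 6 control arrays, while these groups overlap for the other genes.

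Chordc1, a zinc-binding co-chaperone of Hsp90, is represented by probe set 1460645_at. Its signals in the 5 ob/ob arrays were 2280, 2063, 2116, 2069 and 1967. In the 6 STZ arrays its lowest, median and highest signals were 1891, 2243 and 2799, and in the 6 control arrays they were 2601, 2940 and 3247. Every ob/ob array lay below every control array, while only STZ 1 of the STZ arrays reached into the range of the controls. The log2 fold change was -0.48 ± 0.078 in ob/ob mice and -0.35 ± 0.075 in STZ mice against control. Group means of the log2 signal corresponded to 2096 in ob/ob, 2294 in STZ and 2932 in control mice.

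Hsph1 encodes Hsp105, an Hsp110 protein that acts as nucleotide exchange factor of Hsp70. On its probe set 1423566_a_at the 5 ob/ob arrays had 5939, 6833, 6269, 6305 and 4967. The 6 STZ arrays ran from 5866 over a median of 6575 to 6794, and the 6 control arrays from 7061 over 7703 to 8821. Neither model overlapped the controls on this probe set, the only one of the 21 where that held for STZ mice. The log2 fold change was -0.38 ± 0.071 in ob/ob and -0.29 ± 0.068 in STZ mice. On the brighter probe set 1425993_a_at it was -0.29 ± 0.061 in ob/ob and -0.21 ± 0.058 in STZ mice. There the ob/ob arrays (7486 to 8397) stayed below the controls (8596 to 11003), while the STZ arrays (7640 to 9467) overlapped them.

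Hspa4, the other Hsp110 protein of the set, gave a different value on each of its 3 probe sets. In ob/ob mice the log2 fold changes were -0.25 ± 0.13 on 1416147_at, -0.13 ± 0.10 on 1435194_at and 0.054 ± 0.080 on 1416146_at. In STZ mice they were -0.30 ± 0.12, -0.099 ± 0.097 and 0.019 ± 0.076 on the same probe sets. All groups overlapped on all of them. With the group means removed, the correlation between these probe sets over the 17 arrays ran from -0.26 to 0.17, with no shared pattern among them.

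Hspa8, the constitutive Hsp70 known as Hsc70, had groups that overlapped on all of its probe sets. On its brightest probe set outside the cross-hybridizing _x_at kind, 1420622_a_at, the 5 ob/ob arrays had 24501, 21190, 21679, 21623 and 22277. The STZ arrays ran from 20761 over 22835 to 24568, and the control arrays from 22084 over 23442 to 25571. Control and model arrays were interleaved, with log2 fold changes of -0.095 ± 0.051 in ob/ob and -0.052 ± 0.049 in STZ mice. The probe sets 1420623_x_at and 1455789_x_at gave -0.11 ± 0.054 and -0.070 ± 0.041 in ob/ob mice, and -0.039 ± 0.051 and -0.0095 ± 0.039 in STZ mice. The dim probe set 1431182_at gave -0.16 ± 0.17 in ob/ob and 0.086 ± 0.16 in STZ mice.

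Of the J proteins, Dnaja1, a type I partner of Hsp70, had small negative values. On 1416288_at its signals in the ob/ob arrays were 9203, 9419, 9528, 9170 and 8480. The STZ arrays ran from 9155 over 9418 to 10374, and the control arrays from 9570 over 10192 to 10520. The ob/ob arrays did not overlap the controls, and the log2 fold change was -0.15 ± 0.043 in ob/ob and -0.079 ± 0.041 in STZ mice. On 1460179_at it was -0.093 ± 0.042 in ob/ob and -0.058 ± 0.040 in STZ mice, with overlap in both. Dnajb1, the type II J protein of the heat shock response, stood at -0.11 ± 0.086 and -0.055 ± 0.099 on its 2 probe sets in ob/ob mice. In STZ mice the same probe sets, 1416755_at and 1416756_at, stood at 0.025 ± 0.082 and -0.0015 ± 0.095. Its signals on 1416755_at lay between 2124 and 2769 in ob/ob, 2310 and 3040 in STZ and 2172 and 3105 in control mice, with the ranges overlapping almost fully.

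Hsp90aa1, the inducible cytosolic Hsp90, was measured by 3 probe sets. On 1437497_a_at the ob/ob arrays had 15208, 14367, 15383, 15657 and 14388. The STZ arrays ran from 15036 over 15736 to 16798, and the control arrays from 15765 over 17196 to 17782. The ob/ob arrays lay below all controls, and the log2 fold change was -0.18 ± 0.040 in ob/ob and -0.11 ± 0.038 in STZ mice. On 1426645_at it was -0.16 ± 0.044 in ob/ob, again without overlap, and -0.10 ± 0.042 in STZ mice. On 1438902_a_at it was -0.14 ± 0.053 in ob/ob and -0.056 ± 0.050 in STZ mice, with overlap in both.

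Cacybp, a calcyclin-binding protein with an Hsp90-binding domain of the same type as other co-chaperones, had the smallest SE of the 21 probe sets. On 1452047_at the ob/ob arrays had 6725, 6619, 6624, 6619 and 6327. The STZ arrays ran from 6722 over 7007 to 7589, and the control arrays from 7368 over 7554 to 7794. The ob/ob arrays lay below all controls, and only STZ 3 of the STZ arrays reached the control range. The log2 fold change was -0.20 ± 0.036 in ob/ob and -0.10 ± 0.035 in STZ mice. Stip1, the adaptor between Hsp70 and Hsp90, stood at -0.10 ± 0.092 in ob/ob and -0.10 ± 0.087 in STZ mice on 1415909_at. Its ranges overlapped, from 2841 to 3397 in ob/ob, 2360 to 3630 in STZ and 2976 to 3842 in control mice.

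Cryab, the small heat shock protein alpha-B crystallin, had lower means in STZ than in ob/ob mice on both tested probe sets. On 1416455_a_at the ob/ob arrays had 4414, 5208, 4599, 5615 and 4952. The STZ arrays ran from 4211 over 4656 to 5144, and the control arrays from 4617 over 6189 to 7123. Control 1, the lowest control, lay inside the range of both models, and the next control was at 5364. The log2 fold change was -0.26 ± 0.088 in ob/ob and -0.35 ± 0.084 in STZ mice. On 1434369_a_at it was -0.21 ± 0.078 in ob/ob and -0.30 ± 0.075 in STZ mice. The remaining probe set, 1435837_at, was the one under the signal filter, with signals between 66.1 and 169 in ob/ob, 46.6 and 170 in STZ and 65.8 and 132 in control mice. Markers of oligodendrocytes, 7 of 8 measured, had mean log2 levels of 13.50 to 13.62 in ob/ob, 13.36 to 13.55 in STZ and 13.27 to 13.67 in control arrays. Their list median was 0.083 in ob/ob and 0.021 in STZ mice against control, with 0 called by limma (1 and 0 at an unadjusted p under 0.05).

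**Figure D2:**
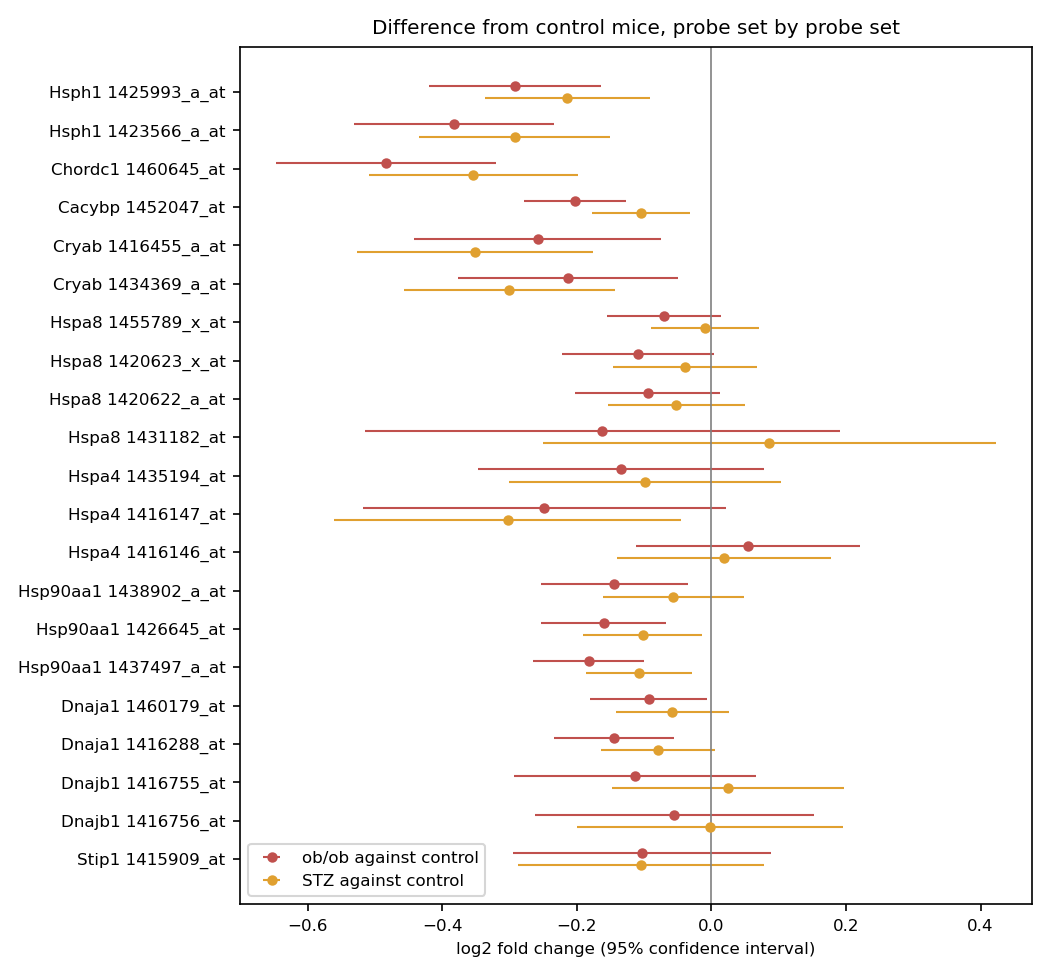
Log2 fold change against control mice, with its 95% confidence interval from limma, for each of the 21 tested probe sets, with ob/ob above STZ in each pair. The values run from -0.48 (Chordc1) to 0.054 (Hspa4, 1416146_at) in ob/ob mice and from -0.35 to 0.086 in STZ mice.

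Over the 21 probe sets the median log2 fold change in ob/ob against control was -0.15, beside -0.00051 over all 13576 probe sets tested, and 20 of 21 were negative, beside 50.2% of all. In STZ against control the median was -0.099, beside 0.00060 over all, and 18 of 21 were negative, beside 49.7% of all. Both comparisons share the 6 control arrays, and both were known when the genes were chosen, so these counts are given without reading a result from them. At an adjusted p under 0.05 over all probe sets (limma with Benjamini-Hochberg adjustment), 3 of 21 were called in ob/ob mice, all lower: Chordc1, Cacybp and Hsph1 on 1423566_a_at. Of all probe sets 0.125% were called there. In STZ mice 0 of 21 were called, beside 0.0516% of all, and 9 of 21 had an unadjusted p under 0.05, all lower, beside 4.38% of all lower. Groups did not overlap, with the model lower, on 7 of 21 probe sets in ob/ob mice, beside 1.07% of all, and on 1 of 21 in STZ mice, beside 0.302% of all. Chordc1 was called without any 1 of the 17 arrays, but only Chordc1 was called without control 1, control 3, control 5, control 6, ob/ob 3, ob/ob 4 or ob/ob 5. Conversely, Chordc1 was called in STZ mice without STZ 1, and Cryab on 1416455_a_at without control 1.

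The comparison of ob/ob with STZ mice shows whether the models differed from each other. None of the 21 probe sets was called (limma, smallest adjusted p = 0.9996), beside 0.0368% of all probe sets. At an unadjusted p under 0.05 there was 1 of 21 (4.76%), near the 3.93% of all probe sets. The median difference was -0.061, beside -0.00017 over all. The one with an unadjusted p of 0.0142 was Cacybp, at -0.098 with a 95% interval from -0.17 to -0.022. Chordc1 differed by -0.13, with an interval from -0.29 to 0.033, and Hsph1 by -0.090 on 1423566_a_at, from -0.24 to 0.059. Cryab had the opposite sign, at 0.092 with an interval from -0.092 to 0.28. Group means ran in the order ob/ob, STZ, control from low to high on 14 of 21 probe sets, and STZ was lowest and control highest on 4. The genes were chosen by their differences from control, and several probe sets belong to the same gene. The order was not counted over all probe sets, so no graded effect is read from it. The lack of a call does not show that the models were alike.

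Array by array, the number of the 10 genes with a signal under the control median on the brightest probe set was 8, 9, 9, 10 and 10 in the 5 ob/ob arrays. It was between 5 and 9 in the STZ arrays and between 2 and 8 in the control arrays. ob/ob 5 had the lowest mean over the 10 genes, 0.28 log2 units under the control mean, and the other ob/ob arrays were between 0.16 and 0.18 under it. STZ arrays ran from 0.062 under it (STZ 1) to 0.25 under it (STZ 5). Because the 10 genes were chosen by differences from control in these same arrays, low values in the models follow from the choice. The counts were not made over all genes and are a description only.

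Region markers are given beside the chaperones, since their mean levels differed between groups, though with no adjusted p under 0.05 (exact permutation test). Those of neighbouring regions (striatum, cortex and thalamus, 11 of 22 tested) had mean log2 levels of 10.81 to 11.05 in ob/ob, 10.55 to 10.90 in STZ and 10.31 to 10.85 in control arrays. The difference was 0.33 in ob/ob against control (two-sided exact permutation p = 0.0152, adjusted p = 0.195 over 10 marker lists and 3 comparisons) and 0.18 in STZ against control (exact permutation p = 0.110). Hypothalamic markers (9 of 11 tested) differed by -0.23 in ob/ob mice against control (two-sided exact permutation p = 0.00649, adjusted p = 0.195). The 11 listed were Pomc, Agrp, Npy, Cartpt, Oxt, Avp, Hcrt, Pmch, Trh, Sim1 and Gal, most of them neuropeptide genes. For this list, a change of their expression with the genotype and a change of tissue content cannot be told apart. With the neighbouring-region level as a covariate, the median of the 21 probe sets was -0.14 in ob/ob and -0.082 in STZ mice. With it Chordc1 stood at -0.51, Hsph1 on 1423566_a_at at -0.41 and Cacybp at -0.16 in ob/ob mice, and 0 of the 21 were called. Dnajb1 changed sign with it, to 0.056 and 0.22 in ob/ob mice, as did Hspa4 on 1416146_at, to -0.060. Lists of astrocyte and neuron markers differed by less than 0.02 between each model and control, and those of microglia and endothelium differed by -0.10 each in ob/ob mice (exact permutation test, adjusted p between 0.241 and 0.247).

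**Figure D3:**
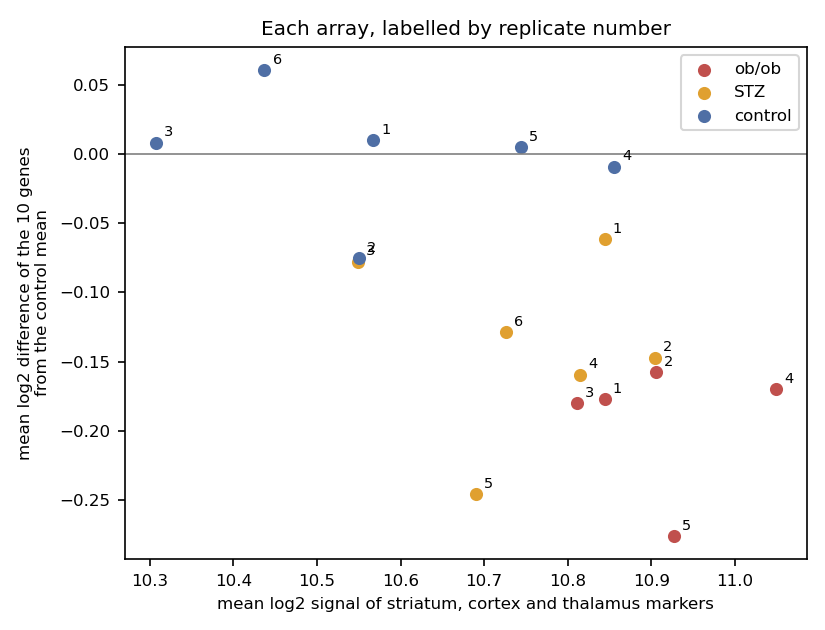
Each of the 17 arrays, labelled by replicate number, by its mean log2 signal of 11 markers of striatum, cortex and thalamus (horizontal axis) and its mean log2 difference from the control mean over the 10 genes (vertical axis). The 5 ob/ob arrays lie at or above 10.81 on the marker axis and below -0.15 on the chaperone axis. The 6 control arrays run from 10.307 to 10.855 on the marker axis and from -0.075 to 0.061 on the chaperone axis. The 6 STZ arrays run from 10.549 to 10.904 and from -0.246 to -0.062.

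How the genes varied together was measured within groups, after each group's mean was removed from the log2 signals, which takes out the differences used to choose them. Over the 17 arrays, 30 of 45 pairs of genes had a positive Pearson correlation, with a median of 0.12, beside a median of 0.00063 over all pairs of the 7990 genes tested. A correlation over 0.5 was reached by 7 pairs (15.6%), beside 4.64% of all pairs. These arrays share their scaling, and the correlations are given as a description. The highest were Hsp90aa1 with Dnaja1 at 0.66, Chordc1 with Cacybp at 0.64 and Hsph1 with Dnaja1 at 0.62. Control 4 was the highest control for Hsp90aa1, Dnaja1 and Hsph1 on these probe sets (28771, 13898 and 11003). Correlations between these genes may lean on that array, and they were not computed without it. Hspa8, on 1420622_a_at, had -0.60 with Hsph1 and -0.52 with Cryab. That probe set did not follow the other Hspa8 probe sets, with correlations of -0.014, 0.079 and -0.12, so these values belong to 1 probe set. Probe sets of 1 gene varied together for Hsph1 (0.75), Dnaja1 (0.80), Dnajb1 (0.77) and Cryab (0.64). For Hsp90aa1 the probe set used here, 1438902_a_at, had 0.82 with 1426645_at and 0.38 with 1437497_a_at. Between 1426645_at and 1437497_a_at the correlation was 0.54.

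**Figure D4:**
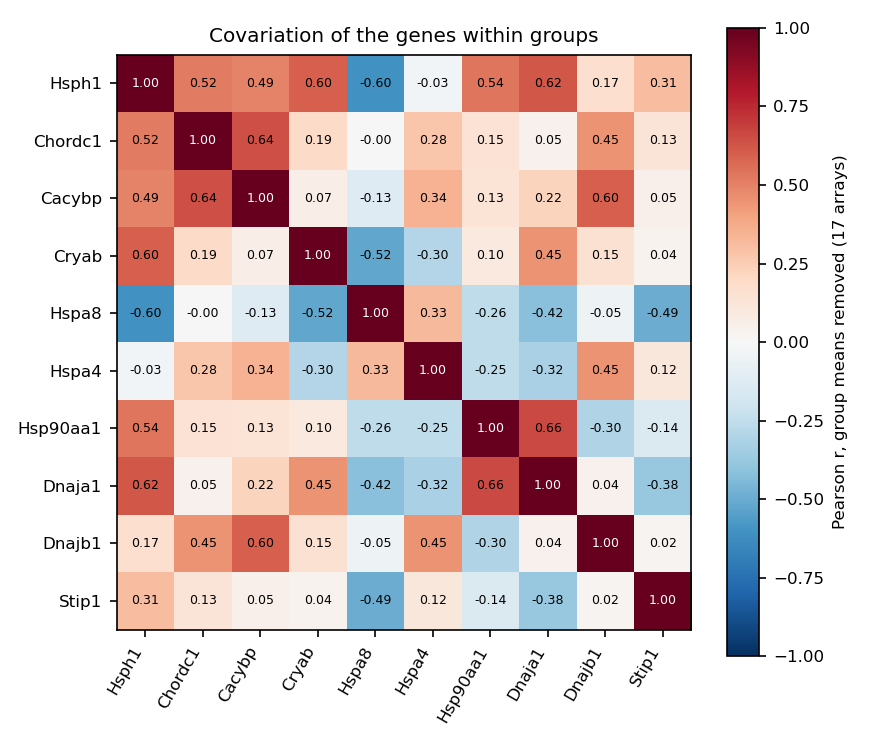
Pearson correlation between the 10 genes over 17 arrays, after each group's mean was removed from the log2 signals, on each gene's brightest probe set. Hsph1, Chordc1 and Cacybp correlate with each other at 0.49 to 0.64, while Hspa8, here 1 probe set that did not follow the others of the gene, has negative values with 8 of the other genes.

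Outside the 10, the genes whose within-group variation was most like the mean of the 10 standardized profiles were Snx16, a sorting nexin, at a correlation of 0.92 over 17 arrays, and Xbp1, the transcription factor of the unfolded protein response, at 0.87. Next came Mrpl42, a mitochondrial ribosomal protein (0.85), Coa6, an assembly factor of cytochrome c oxidase (0.84), and Pex13, a peroxisomal import protein (0.83). Brcc3, Tlk2, Ndufb2, Acot9 and Cipc had correlations between 0.80 and 0.83. These are the highest values among all genes tested outside the 10. The 10 did not share the mean profile equally. With the mean of the other members, Hsph1 correlated at 0.72, Cacybp at 0.66 and Chordc1 at 0.65. Cryab stood at 0.19, Hsp90aa1 and Hspa4 at 0.15, Stip1 at -0.078 and Hspa8 at -0.45. Likeness to the mean is therefore not likeness to each of the 10. Against control, Snx16 stood at -0.16 ± 0.070 and Xbp1 at -0.16 ± 0.054 in ob/ob mice, without a call (limma, adjusted p = 0.383 and 0.240).

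Other genes of the cytosolic chaperone network were taken from lists of 67 genes, of which 58 had a probe set with 1 gene symbol and 51 were tested. In ob/ob against control 0 of 51 were called (limma), beside 0.1% of all genes, while 7 were lower and 2 higher at an unadjusted p under 0.05. The 7 are 13.7% of the 51, beside 5.53% of all genes. In STZ against control 0 were called, beside 0.0501% of all genes, while 8 were lower (15.7%, beside 4.26% of all genes) and 2 higher at that level. In ob/ob against STZ 0 were called, beside 0.0375% of all genes. There 1 was lower (1.96%, beside 2.03% of all genes) and 1 higher at an unadjusted p under 0.05. Their medians were near 0, at -0.035 in ob/ob and 0.0026 in STZ mice, beside 0.0053 and 0.0044 over all genes. The lists were chosen with earlier results of these arrays known, so the shares are a description. Hspa1a and Hspa1b, which may share signal, were counted separately among the lower genes of both models against control.

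**Figure D5:**
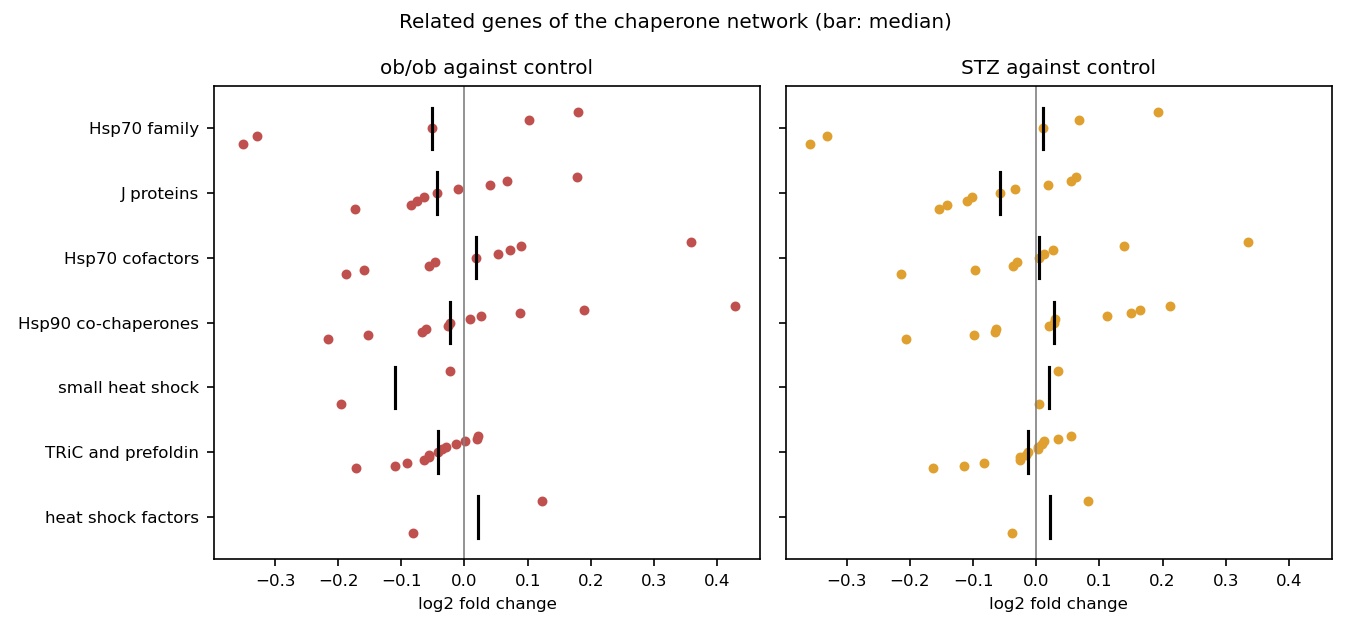
Log2 fold change against control of 51 related genes, each on its brightest probe set, by list, in ob/ob mice (left) and STZ mice (right), with the list median as a bar. Hspa1a and Hspa1b are the lowest points of the Hsp70 family in both models, and Fkbp5 is the highest point of the Hsp90 co-chaperones in ob/ob mice.

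Hspa1a and Hspa1b, the heat-inducible Hsp70 genes, are near-identical and may share signal. Hspa1a had signals of 577 to 687 in ob/ob, 468 to 812 in STZ and 612 to 968 in control mice, and stood at -0.33 ± 0.14 in ob/ob and -0.36 ± 0.13 in STZ mice (limma, adjusted p = 0.352 and 0.461). Hspa1b had 579 to 773 in ob/ob, 539 to 882 in STZ and 772 to 933 in control mice, and stood at -0.35 ± 0.12 and -0.33 ± 0.11 (adjusted p = 0.239 and 0.421). Neither passed, and the groups overlapped in each comparison.

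The immunophilins of the Hsp90 and steroid receptor complex had opposite signs in ob/ob mice. Fkbp4, which promotes receptor activity, had 1494 to 1666 in ob/ob, 1527 to 1701 in STZ and 1654 to 2085 in control mice, at -0.22 ± 0.061 and -0.21 ± 0.058 (adjusted p = 0.149 and 0.269). Fkbp5, which restrains the receptor and is induced by glucocorticoids, had 2347 to 2896 in ob/ob mice without overlap with the 1844 to 2104 in control mice. It stood at 0.43 ± 0.097 in ob/ob (adjusted p = 0.0761) and 0.11 ± 0.093 in STZ mice (adjusted p = 0.798). It passed without STZ 1 (adjusted p = 0.0398), and neither gene passed in the model of all 17 arrays.

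In the chaperonin TRiC and prefoldin list 10 of 13 genes were negative in ob/ob mice, beside 48.1% of all genes, with a median of -0.042, and 0 were called (limma). At an unadjusted p under 0.05, 2 of the 13 (15.4%) were lower and 0 higher, beside 5.53% of all genes lower. In STZ mice 7 of 13 were negative, beside 48.3% of all genes, with a median of -0.013. There 0 were called (limma), while 3 (23.1%) were lower and 0 higher at an unadjusted p under 0.05, beside 4.26% of all genes lower. Its subunits Cct4 and Cct7 stood at -0.17 ± 0.052 and -0.11 ± 0.041 in ob/ob mice (limma, adjusted p = 0.176 and 0.283). Their ob/ob arrays lay below all controls, as did those of 0.864% of all genes. Among J proteins Dnajb2, a neuronal J protein, stood at -0.17 ± 0.068 and Dnajc7 at -0.075 ± 0.047 in ob/ob mice (adjusted p = 0.307 and 0.565). Of the Hsp70 cofactors Bag3, which links Hsp70 to autophagy, stood at 0.36 ± 0.19 and Bag2, which inhibits the ubiquitin ligase Stub1, at -0.19 ± 0.096 (adjusted p = 0.469 and 0.464). The small heat shock genes Hspb1 and Hspb8 stood at -0.20 ± 0.099 and -0.023 ± 0.080 (adjusted p = 0.455 and 0.941). Hsf4, a heat shock factor, and Hsbp1, a factor-binding protein, stood at 0.12 ± 0.12 and -0.081 ± 0.043 (adjusted p = 0.739 and 0.481), while Hsf1 has no probe set with a single symbol here and is not analysed.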

How the data were processed

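The authors deposited 1 signal per probe set and array, an intensity on a linear scale made with MAS5, per the submitters' processing notes. The version, scaling target and detection calls are not given in the sources used here. All arrays had a 2% trimmed mean of 1500.4, and median signals ran from 638 to 708 over the 22626 probe sets that are no controls. Groups came from the array titles, and 0 pairs of arrays were identical. Signals were taken as log2. A filter at the 40th percentile of the mean over all arrays (a geometric mean of 435) kept 13576 probe sets. All 17 arrays entered a single limma 3.58.1 fit in R 4.3.3 (lmFit with a mean for each of 3 groups, then trended eBayes), with Benjamini-Hochberg adjustment over all probe sets tested and a threshold of 0.05, and was tested on simulated data. A gene was represented by its brightest tested probe set, with the _x_at kind only where there was no other. Symbols came from the platform table, and all 22 probe sets matched RefSeq by Entrez identifier. The members and lists were chosen with earlier results of these data known. Named were all member probe sets, any related gene called, the 2 related genes of each list with the smallest p in ob/ob against control, Hsf1, and the 10 genes most like the members. The number of arrays limits the precision. The alternatives were another filter, scaling, floor or variance model, array weights, fits of 2 groups, a replicate block, the neighbouring-region covariate and each array left out.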

Additional observations from a re-analysis of the deposited data

Results flagged for a closer look

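Within 1 group, 1 array stood far from the others in 6 of 108 sets of signals examined (22 member and 14 related probe sets in 3 groups), where chance gives about 5%. Among the chaperones Cacybp was low in ob/ob 5, at 6327.4 against 6618.6 to 6725.1 in the other ob/ob arrays. Cryab on 1434369_a_at was high in ob/ob 4, at 4136.9 against 3289.2 to 3380.1. Hspa8 on 1420623_x_at was low in STZ 2, at 24340.3 against 27357.1 to 28485.3. Hsp90aa1 on 1438902_a_at was high in control 4, at 28770.7 against 23538.2 to 24916.9. Among the related genes Bag3 was low in ob/ob 1, at 754.3 against 1122.5 to 1187.4, and Cct4 was high in STZ 3, at 6901.8 against 5498.5 to 5731.5.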

How the results depend on the processing

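The median difference of the 21 probe sets kept its sign in all 27 alternatives, from -0.18 to -0.12 in ob/ob and from -0.13 to -0.068 in STZ against control. The number of the 21 called in ob/ob mice, 3 in the model of all arrays, was 1 without a variance trend, with median centring, in a fit of the 2 groups alone or with the replicate block. It was 0 with the neighbouring-region covariate and 2 to 4 in the other settings, and each array left out in turn gave 1 to 4. The additional call, where there were 4, was Hsph1 on 1425993_a_at (array weights, quantile normalization, and without control 2). Chordc1 was called in 26 of 27 alternatives, Cacybp in 14 and Hsph1 on 1423566_a_at in 13. Where the call was lost the sign was kept, with values of -0.16 to -0.23 for Cacybp and -0.31 to -0.41 for Hsph1. In STZ mice the count was 0 to 1 with an array left out and 0 otherwise. Related genes called in ob/ob mice were 1 in the 2-group fit and 0 to 1 with an array left out, each time Fkbp5. Of all values of single probe sets, called and uncalled, 22 of 566 changed sign in STZ against control, 4 of 566 in ob/ob against control and 16 of 566 in ob/ob against STZ. Arrays with the same number had correlations from -0.17 to 0.11 (median 0.023). Those with different numbers had -0.37 to 0.40 (median 0.0014). These values give no sign that the numbers pair arrays, but they cannot show whether arrays shared a litter or batch. The cause of the lost calls was not tested.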

Other observations

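Of 177 other genes with a 3-unit match in a promoter window, 38 were tested, and 0 were called in either model against control (limma), beside 0.1% of all genes in ob/ob and 0.0501% in STZ mice. At an unadjusted p under 0.05, 5 (13.2%) were lower and 1 higher in ob/ob mice, beside 5.53% of all genes lower. In STZ mice 2 (5.26%) were lower and 2 higher, beside 4.26% of all genes lower. Their median log2 fold change was -0.013 in ob/ob and -0.015 in STZ mice, beside 0.0053 and 0.0044 over all genes tested.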
